A study of Mus musculus with 12 samples.

Results

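The TRIM (tripartite motif) family was followed in dendritic cells (DCs) of the mouse spleen, with and without in vivo activation, in mice with and without a working NIK kinase. Members were the genes named Trim followed directly by a number and an optional letter on an Affymetrix mouse array. They were taken from the probe sets (groups of short probes read as 1 value) that carried a single gene symbol, with 1 probe set per gene, the one with the highest mean of log2(value + 16) over the 12 arrays. This gave 58 genes from 111 probe sets, of 45101 probe sets on the array. Of the 58 genes, 46 passed a filter on low values and entered the fit over 15019 genes.

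DCs came from alymphoplasia (aly) mice, in which Map3k14, the gene of NIK, is mutated, or from heterozygous littermates, which still hold 1 mutant allele and are called wild type (WT), as in the labels. Treated mice received 25 µg of LPS and 100 µg of an agonistic antibody against CD40 by intraperitoneal injection and gave DCs 6 hours later, and untreated mice served as the reference. Both genotypes were sampled with and without treatment, in 4 groups of 3 arrays, and each array held DCs pooled from 3 mice, selected with CD11c beads and then flow-sorted. Since animals were pooled, p-values reflect how far such pools differ, and in such bulk samples fewer cells of a type and less RNA per cell cannot be told apart. The age of the mice is not given in the sources used here, the mutation is present in every cell of the aly mouse, and LPS and anti-CD40 were given together, so neither agent can be read alone.

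TRIM proteins share a RING finger, B-box domains and a coiled coil, and most are E3 ubiquitin ligases, which attach ubiquitin to other proteins. The C-terminal domain sets the subfamily: a PRY-SPRY domain binds proteins in the largest class, while other classes carry a PHD finger with a bromodomain, NHL repeats, a MATH domain or a transmembrane stretch. In immune cells the family is known for members that restrict viruses, tune RNA sensing or damp NF-kB signalling, several of which are induced by interferon. Activated DCs make and respond to interferon, and NIK drives the non-canonical arm of NF-kB downstream of CD40.

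Values are probe set intensities on a linear scale, scaled by the authors to 1 common trimmed mean on each array, and differences are in log2(value + 16) with the standard error (SE) of a limma fit to all 12 arrays. Calls rest on a Benjamini-Hochberg adjusted p below 0.05 over the 15019 genes. The arrays were not of equal quality. The mean log2 ratio of 3' over 5' control probe sets for Actb and Gapdh, which rises as RNA degrades, was 1.37 to 1.83 on the 6 WT arrays and 2.17 to 5.66 on the 6 aly arrays. The highest was treated aly replicate 1, which also had hybridisation controls at 28530 (2458 to 5768 elsewhere) and the lowest rank correlations with the other arrays (0.577 to 0.665). It was the lowest of the 12 arrays for 17 of the 46 tested members. For the probe sets used and the lists, values without it are given beside a result where leaving it out turned the sign, changed a call or moved the value by over 1.5 times. Poly-A spikes lay at 3.25 to 23.7 on the 4 arrays numbered replicate 1 and at 54.9 to 533.4 elsewhere, a difference the labels do not explain. The DC genes Itgax, Zbtb46 and Flt3 read 216 or more on every array but treated aly replicate 1. There they read 229.7, 44 and 267.4, beside an array median of 53.4. They belong to a list of 8 DC markers, whose summed level was highest on that array, at 47650 (19100 to 39480 elsewhere). Cd74 read 26472.3 there (8359.5 to 13424.1 elsewhere) and H2-Ab1 19886.7 (6912 to 21927 elsewhere). Dpp4 and Kmo were lowest there (152.2 and 384.8). The summed level of 7 neutrophil markers was 15270 on that array and 54.8 to 3122 elsewhere. The summed level of 15 red pulp macrophage markers was 3470 to 20320 in untreated WT, 2733 to 17560 in treated WT, 49010 to 79550 in untreated aly and 32820 to 61400 in treated aly samples. The highest array of both WT groups was replicate 1, and the other WT arrays read 2733 to 4869. In the log2 fit all genes had a median response to treatment of -0.116 in WT and -0.076 in aly, and a median genotype difference of 0.104 in untreated and 0.188 in treated DCs.

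Treatment of WT mice changed 4 TRIM genes past the threshold. Trim43a, Trim30d and Trim14 rose and Trim37 fell. This is 4 of 46 tested members (3 higher, 1 lower), beside 9.71% of all genes called in this comparison (4.95% higher and 4.75% lower). The members' median was 0.05, within a range of -2.20 to 3.47, beside -0.116 over all genes. In 11 members all 3 treated WT arrays lay above all 3 untreated ones, and in 10 they lay below, beside 14.3% and 22.1% of all genes. The family thus moved both ways, and its share of calls was close to that of all genes.

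In aly DCs limma called no TRIM gene for treatment (0 of 46, 7 at an unadjusted p under 0.05), beside 0.486% of all genes (0.453% higher, 0.0333% lower). Arrays did not overlap for 3 members higher and 2 lower, beside 6.02% and 8.56% of all genes. The members' median was -0.21 (0.06 without treated aly replicate 1). Between untreated genotypes the fit called none either (0 of 46, 6 at an unadjusted p under 0.05), beside 0.553% of all genes (0.499% higher, 0.0533% lower), and arrays did not overlap for 4 members higher and 10 lower in aly, beside 12.9% and 9.86%. Between treated genotypes 3 members were lower in aly, Trim21, Trim30a and Trim43a, and none was higher, beside 5.37% of all genes (2.74% higher, 2.64% lower). Arrays of the treated genotypes did not overlap for 5 members higher and 9 lower in aly, beside 14.1% and 10.1% of all genes. The genotype by treatment interaction was called for 0 of 46 members (3 at an unadjusted p under 0.05), beside 0.153% of all genes. Without treated aly replicate 1 the fit called 8 members for treatment in WT (5 higher, 3 lower), beside 18.9% of all genes (7.8% higher, 11.1% lower), and 0 for treatment in aly (0.366% of all genes). It called 2 for genotype untreated, Trim10 higher and Trim12c lower, beside 2.64% of all genes (1.92% higher, 0.719% lower). For genotype treated it called 5, with Trim2 and Trim37 higher and the same 3 lower as with all arrays, beside 7.11% of all genes (4.13% higher, 2.98% lower). The interaction gave 0, beside 0.752%. The gains in WT (Trim3 and Trim30a higher, Trim56 and Trim59 lower) came with a smaller fitted spread and unchanged estimates, since the array left out is in neither WT group.

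**Figure D1:**
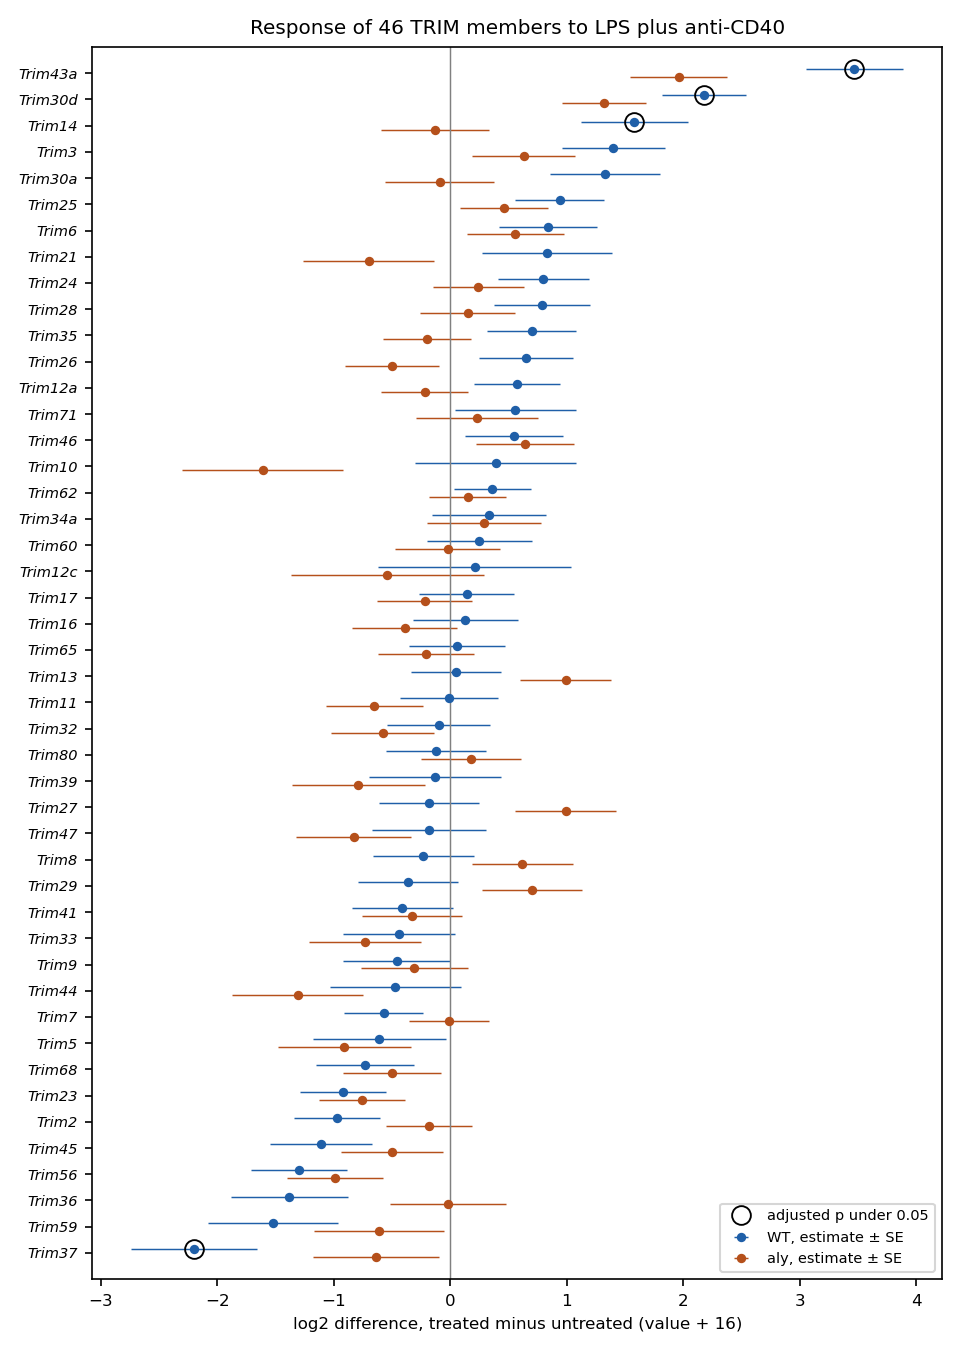
Log2 difference of the 46 tested TRIM members, treated minus untreated, in WT (blue) and aly (orange) DCs, with the SE of the fit as bars; circles mark an adjusted p under 0.05. The 4 circled members are all WT estimates, from Trim43a at 3.47 to Trim37 at -2.20, and no aly estimate is circled.

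Among the members are neighbouring genes of the PRY-SPRY class on mouse chromosome 7. In the RefSeq annotation (GRCm38.p6) the protein-coding genes run Trim6, Trim34a, Trim5, Trim12a, Trim34b, Trim12c, Gm38525, Trim30b, Trim30c, Trim30a and Trim30d, of which Trim6, Trim34a, Trim5, Trim12a, Trim12c, Trim30a and Trim30d are members here. These are the mouse counterparts of the primate restriction factor region that holds TRIM5, and Trim21, the cytosolic antibody receptor, lies elsewhere on the same chromosome. The paralogues are alike in sequence, so a probe set of 1 may read transcripts of another, and probe sets that carry the symbols of several of them are no members here.

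RefSeq promoters (250 bases before to 50 after a transcription start) were given for 47 of the 58 members. They were searched on both strands for GAAA, any 2 bases and GAAA again, the core of the interferon-stimulated response element, where overlapping matches count separately. A match stood in 10 of 61 member promoters (16.4%, 9 genes), beside 1131 of 32851 promoters of all genes (3.44%). The 9 genes were Trim34a, Trim5, Trim12a, Trim12c, Trim30a (at both of its starts) and Trim30d in the cluster, Trim21, and outside chromosome 7 Trim2 and Trim26. The clustered genes are paralogues, so their matches are not independent of each other. TTCNNNGAA, the core of the gamma-activated sequence and its own reverse complement, stood in 5 of 61 member promoters (8.2%) and in 8.3% of all. A match is a description of letters and not a shown binding site.

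Promoters are shown only for some members that hold a match, with the matching core in capitals. Trim43a, Trim14 and Trim37, called below, are not among the genes with a match. For treatment in WT 1 of 9 tested members with a match and 2 of 26 without one were called, beside 9.71% of all genes. Between treated genotypes these were 2 of 9 and 1 of 26, beside 5.37%. Each is written on the strand of the gene, and in Trim30a, Trim30d and Trim12c the core reads on the other strand, so its reverse complement is what appears. Trim30a (chr7:104465144-104465443) and Trim30d (chr7:104507800-104508099), both on the minus strand of GRCm38.p6, hold the same 10 letters at -36 to -27 and at -41 to -32 from the start. Trim12c (chr7:104353300-104353599, minus strand) holds its core at -29 to -20, with the same letters as Trim5 and Trim12a. Trim21 (chr7:102565433-102565732, minus strand) holds 2 overlapping cores at 14 to 23 and at 20 to 29 after the start.
Trim30a: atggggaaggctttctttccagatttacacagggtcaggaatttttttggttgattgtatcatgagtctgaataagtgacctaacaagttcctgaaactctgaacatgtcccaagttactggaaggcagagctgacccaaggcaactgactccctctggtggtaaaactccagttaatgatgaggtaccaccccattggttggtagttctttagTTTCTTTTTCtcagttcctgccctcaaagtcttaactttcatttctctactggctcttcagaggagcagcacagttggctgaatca
Trim30d: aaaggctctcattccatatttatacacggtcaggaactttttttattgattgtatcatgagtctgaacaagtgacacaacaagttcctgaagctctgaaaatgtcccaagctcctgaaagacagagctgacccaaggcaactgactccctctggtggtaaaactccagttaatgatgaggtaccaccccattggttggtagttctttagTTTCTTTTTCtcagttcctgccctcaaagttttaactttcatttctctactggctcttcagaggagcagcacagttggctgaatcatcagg
Trim12c: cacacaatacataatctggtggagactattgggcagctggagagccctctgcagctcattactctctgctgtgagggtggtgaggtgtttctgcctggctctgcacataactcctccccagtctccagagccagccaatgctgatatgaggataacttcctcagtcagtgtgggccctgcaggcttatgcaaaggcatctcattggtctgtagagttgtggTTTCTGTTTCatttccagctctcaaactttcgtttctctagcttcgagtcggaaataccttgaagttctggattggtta
Trim21: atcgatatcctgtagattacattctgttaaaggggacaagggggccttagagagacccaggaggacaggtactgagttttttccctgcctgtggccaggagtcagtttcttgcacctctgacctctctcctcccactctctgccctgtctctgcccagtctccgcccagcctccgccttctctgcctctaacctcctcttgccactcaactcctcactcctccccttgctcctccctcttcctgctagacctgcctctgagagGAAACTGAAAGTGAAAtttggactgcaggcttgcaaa

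**Figure D2:**
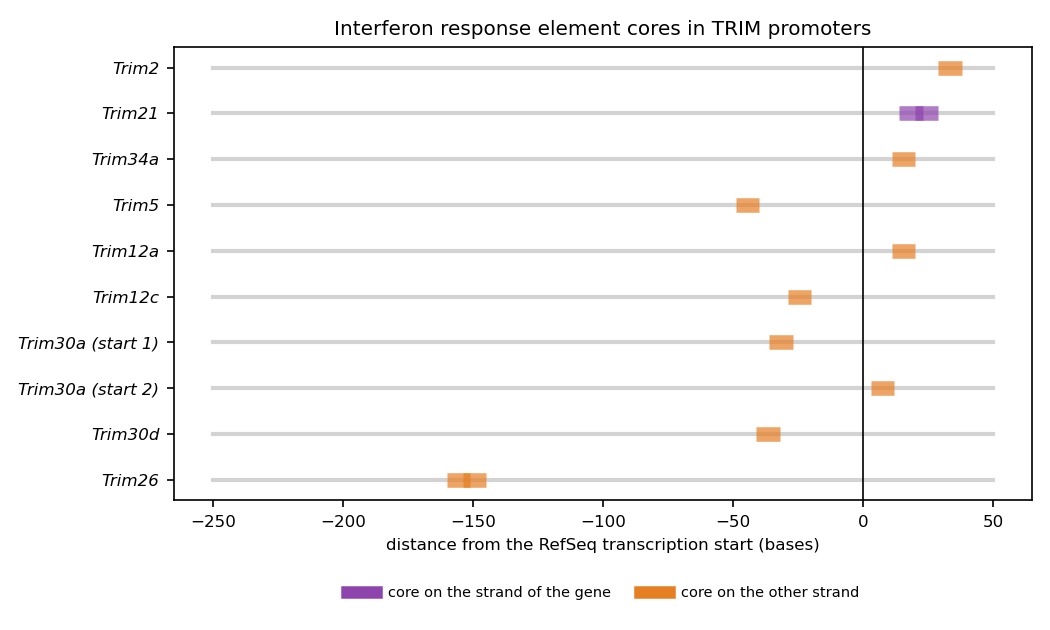
Positions of the interferon response core (GAAA, any 2 bases, GAAA) in the 10 TRIM promoters that hold one, as distance in bases from the RefSeq start; grey lines show the window searched, purple a core on the strand of the gene and orange one on the other strand. In the 6 clustered genes each core lies within 50 bases of the start, whereas both cores of Trim26 lie between -160 and -145.

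Trim30d rose in WT DCs, and its arrays rose without overlap in both genotypes. Untreated WT arrays read 362, 341 and 543 and treated WT arrays 2243, 1253 and 2444. Untreated aly arrays read 370, 355 and 390 and treated aly arrays 876, 1090 and 892. The lowest treated array of either genotype was above the highest untreated one, and the treated aly arrays were below the treated WT ones. The log2 difference was 2.18 ± 0.36 in WT (4.54-fold, adjusted p = 0.001) and 1.32 ± 0.36 in aly (2.49-fold, adjusted p = 0.16). The WT call held in all 24 alternative fits, with adjusted p from 3.7e-05 to 0.013. The second probe set gave 2.14 in WT (adjusted p = 0.0074) and 0.95 in aly. Treated aly minus treated WT was -0.99 ± 0.36 (95% interval -1.75 to -0.23), and it missed the threshold (adjusted p = 0.11).

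Trim30a, whose product damps Toll-like receptor signalling by acting on the TAB2 and TAB3 adaptors, was lower in treated aly than in treated WT DCs. Untreated WT arrays read 2603, 2120 and 3427, treated WT 5922, 5575 and 9224, untreated aly 1696, 1749 and 1858, and treated aly 731, 1797 and 3455. The treated WT arrays lay above all others, and the 3 treated aly arrays lay far apart. The treated genotypes differed by -2.01 ± 0.47 (4.03-fold, adjusted p = 0.022), and by -1.43 without treated aly replicate 1 (2.69-fold, adjusted p = 0.03). The call was lost without treated WT replicate 3 or treated aly replicate 2, in replicates 2 and 3 alone (-1.52, adjusted p = 0.069), in a fit of the treated groups alone and with an offset of 1 (adjusted p up to 0.14). The other probe set of Trim30a gave only -0.58 (adjusted p = 0.48), and -0.98 without treated aly replicate 1 (adjusted p = 0.21). On that probe set treated aly replicate 1 was the highest of the 3 treated aly arrays (3508.4, 2200.1 and 1089.5), where it was the lowest on the one used, so the call rests on the probe set. For treatment in WT the estimate was 1.33 ± 0.47 (adjusted p = 0.087, and 0.01 without treated aly replicate 1), and the other probe set, at 1.58, was called (adjusted p = 0.042 over 34205 probe sets). In aly the estimate was -0.09 ± 0.47, and 0.49 without replicate 1.

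Arrays of Trim12c and Trim34a did not overlap between the untreated genotypes. Trim12c read 1071, 1109 and 1155 in untreated WT and 357, 310 and 414 in untreated aly. Treated WT arrays read 848, 1288 and 1958, and treated aly arrays 18.6, 421 and 1106. The untreated groups did not overlap, whereas treated aly replicate 1 read far below every other array. That array widened the fitted spread: the untreated difference of -1.59 had an SE of 0.83 (adjusted p = 0.53) with all arrays and 0.38 without it (adjusted p = 0.035). Between treated genotypes Trim12c was at -2.34 ± 0.83 (adjusted p = 0.11), and at -0.90 without that array (adjusted p = 0.23). The other probe set of Trim12c, with 94, 92.6 and 99.6 in treated WT and 5, 9.4 and 38 in treated aly, was called lower in aly (-1.86, adjusted p = 0.018 over 34205 probe sets, and -1.59 with adjusted p = 0.025 without treated aly replicate 1). Its untreated difference was -0.59 (adjusted p = 0.69). Trim34a read 1479, 1161 and 1067 in untreated WT and 390, 881 and 383 in untreated aly, again without overlap. Its difference was -1.24 ± 0.49 (adjusted p = 0.37), and between treated genotypes -1.28 ± 0.49 (adjusted p = 0.13, and -0.81 with adjusted p = 0.32 without treated aly replicate 1). The other probe set of Trim34a, at 16.1 to 109.2 on the arrays, read the other way in untreated DCs (0.56). In treated DCs it gave 0.43 with all arrays and -0.06 without treated aly replicate 1.

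Trim12a, Trim5 and Trim6 did not pass in any of the 5 comparisons. Trim12a read 1474, 1731 and 1662 in treated WT and 662, 732 and 953 in treated aly. These groups do not overlap, at -1.05 ± 0.37 (adjusted p = 0.1). The other probe set of Trim12a gave 0.25, and -0.23 without treated aly replicate 1. Trim5 read 418, 445 and 405 in untreated WT and 282, 145 and 270 in untreated aly (-0.87, adjusted p = 0.64). It read 250, 334 and 237 in treated WT, below the untreated WT arrays (-0.61, adjusted p = 0.6). Trim6 stayed between 8.3 and 103 on the 12 arrays. Over the 10 tested members of the chromosome 7 list (the 7 clustered genes with Trim21, Trim3 and Trim68) the median response to treatment was 0.70 in WT and -0.16 in aly, and the median genotype difference was -0.52 untreated and -1.11 treated. Without treated aly replicate 1 the aly median turned to 0.38, and the treated genotype median was -0.92.

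**Figure D3:**
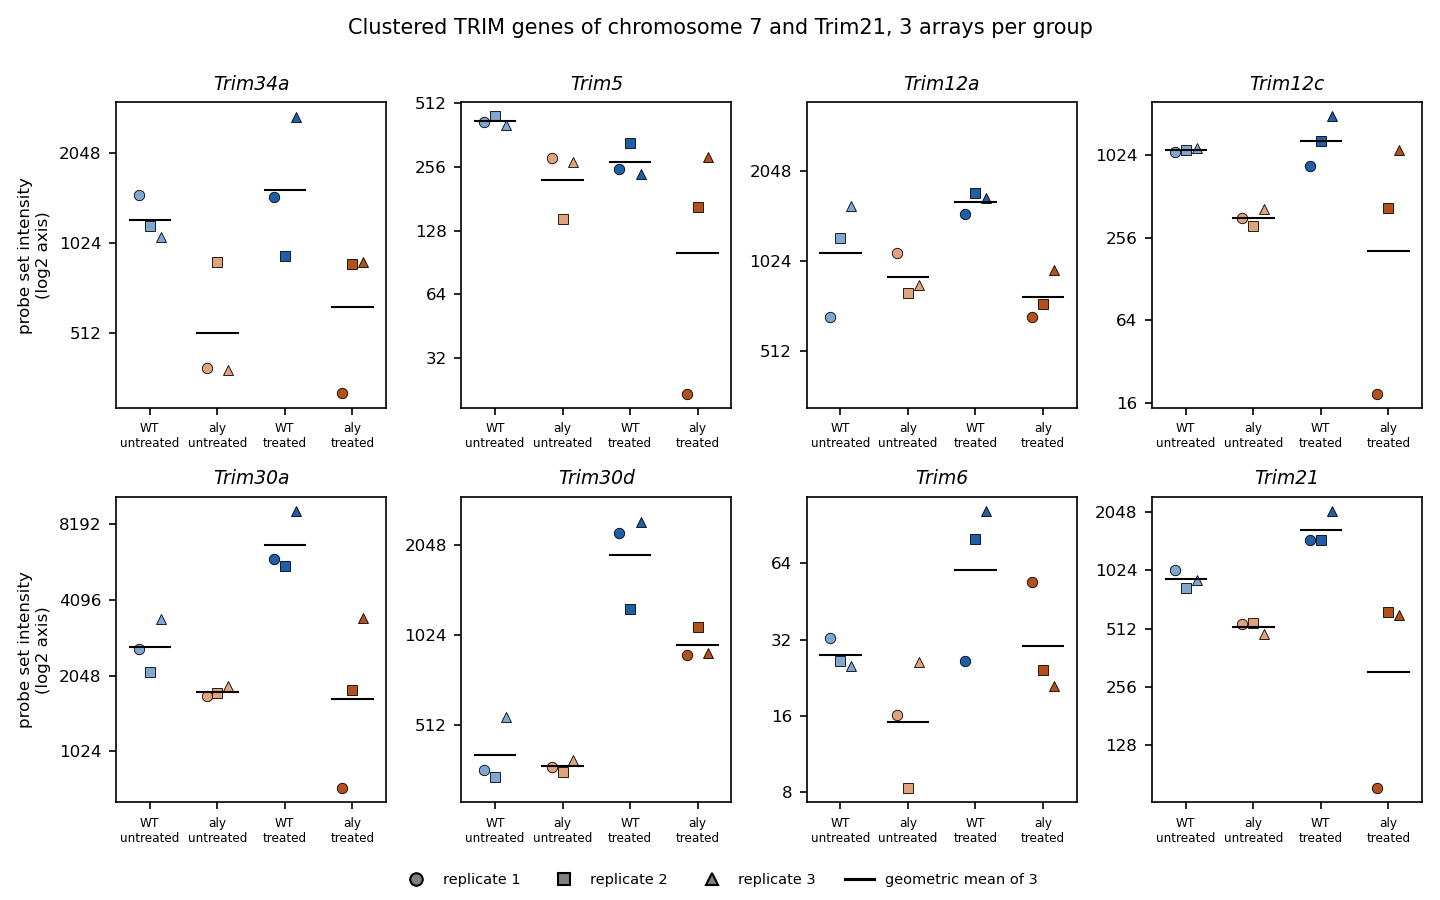
Probe set intensity on each of the 12 arrays for the 7 clustered TRIM genes and Trim21, on a log2 axis; symbols give the replicate, lines the geometric mean of the 3 arrays. The treated WT arrays of Trim30a, Trim30d and Trim21 lie above the other groups, and treated aly replicate 1 (orange circle) is the lowest of the 12 arrays for Trim34a, Trim5, Trim12a, Trim12c, Trim30a and Trim21, 6 of the 8 genes, by a small margin in Trim12a.

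Trim21 encodes Ro52, which binds antibody on viruses that have entered the cell and ubiquitinates several interferon regulatory factors. It was lower in treated aly than in treated WT DCs. Untreated WT arrays read 1031, 833 and 911, untreated aly 544, 551 and 483, treated WT 1468, 1480 and 2080, and treated aly 76.7, 625 and 602. Neither pair of genotypes overlapped, and treated WT arrays were all above untreated WT ones. The treated genotypes differed by -2.33 ± 0.56 (5.02-fold, adjusted p = 0.026), and by -1.41 without treated aly replicate 1 (2.65-fold, adjusted p = 0.015). The second probe set gave -1.52 (adjusted p = 0.047). The call was lost without treated WT replicate 1, 2 or 3, with an offset of 1 and in a fit of the treated groups alone (adjusted p up to 0.16). In untreated DCs the difference was -0.79 ± 0.56 (adjusted p = 0.67). Treatment gave 0.83 ± 0.56 in WT (adjusted p = 0.43, and 0.052 without treated aly replicate 1) and -0.70 ± 0.56 in aly (0.22 without it). The change of sign in aly thus turns on 1 array, and the interaction of -1.54 (95% interval -3.21 to 0.14) was not called and was -0.61 without that array.

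Of the 35 tested members with a promoter sequence, the 9 with a core had a median of -1.17 between treated genotypes, with 8 lower in aly, and the 26 without one had a median of 0.14, with 11 lower. Without treated aly replicate 1 these medians were -0.90 and 0.08, with 8 and 13 lower. In untreated DCs the medians were -0.59 and -0.01. For treatment in WT they were 0.57 and -0.12, and for treatment in aly -0.22 and -0.16 (0.22 and 0.06 without that array). These are descriptions of a few related genes, beside a median over all genes of 0.188 for genotype treated and -0.116 for treatment in WT. RNA quality and red pulp macrophage markers also differed by genotype, and their part in these values was not tested.

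**Figure D4:**
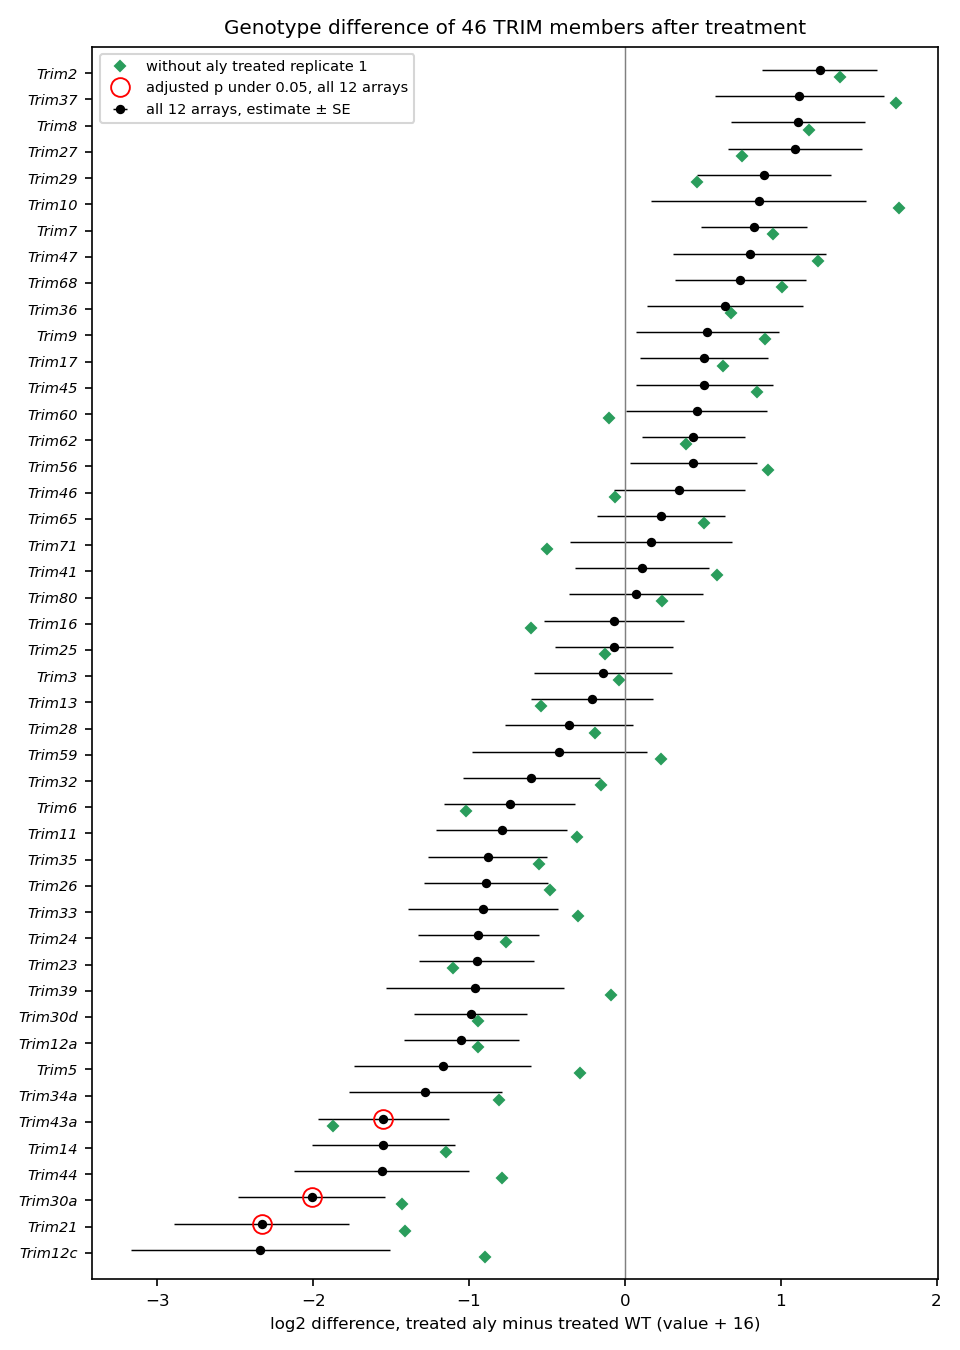
Log2 difference of the 46 tested TRIM members between treated aly and treated WT DCs, with all 12 arrays (black, bars are the SE) and without treated aly replicate 1 (green); red circles mark an adjusted p under 0.05 with all arrays. Trim21, Trim30a and Trim43a are circled; Trim12c moves from -2.34 to -0.90 without that array, and Trim37 from 1.12 to 1.74.

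Members that act on RNA sensing and interferon signalling gave 1 call in WT. Trim14, an adaptor of antiviral signalling that lacks a RING finger, read 222, 256 and 182.5 in untreated WT and 505, 555 and 1137 in treated WT. It read 236.5, 208 and 306 in untreated aly and 123, 186 and 477 in treated aly. Treated WT arrays were above all arrays of the other groups, and the aly groups overlapped. Trim14 rose by 1.58 ± 0.46 in WT (2.99-fold, adjusted p = 0.039, or 0.0083 once treated aly replicate 1 was left out), and in aly the estimate was -0.13 ± 0.46 (adjusted p = 0.92, and 0.26 without that array). The WT call did not hold without any 1 of the 6 WT arrays or untreated aly replicate 1 or 2, and with an offset of 1 (adjusted p up to 0.21). The other probe set of Trim14, at 1.5 to 20.8 on the arrays, gave 0.49 in WT. The difference between treated genotypes was -1.55 ± 0.46 (adjusted p = 0.061), and the interaction of -1.71 (95% interval -3.08 to -0.34) was not called (adjusted p = 0.5).

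Trim25, the ligase that activates the RNA sensor RIG-I, read 3838, 5521 and 3349 in untreated WT and 9243, 6362 and 8500 in treated WT on the probe set used. In aly it read 3609, 7659 and 5982 before and 8202, 9169 and 5709 after treatment. The WT groups did not overlap and the aly groups did. The WT difference of 0.94 ± 0.38 was not called (adjusted p = 0.14). Of its 2 other probe sets, 1 gave 1.45 (adjusted p = 0.15) and the other, which read 93.2, 55.5 and 71.7 before and 935, 335 and 713 after treatment, was called at 2.82 (adjusted p = 0.00089). On that last probe set treatment in aly gave 2.17 (adjusted p = 0.055), from 130.5, 158.9 and 83.2 to 1039, 580.3 and 355.3. All 3 Trim25 probe sets read higher after treatment in both genotypes, by different amounts. The genotypes differed little on any of the 3, at -0.29 to -0.02 in treated DCs (-0.41 to 0.01 without treated aly replicate 1).

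Trim56, a ligase linked to DNA and RNA sensing, was lower in treated WT (248, 164 and 223) than in untreated WT (654, 391 and 608), without overlap. Its estimate was -1.30 ± 0.41 in WT (adjusted p = 0.058, and 0.0069 without treated aly replicate 1). In aly it read 670, 546 and 568 before and 142, 445 and 375 after treatment, at -0.99 ± 0.41 (adjusted p = 0.35), and at -0.52 without that array. Trim26, which acts on IRF3, read 195, 335 and 252 in untreated WT and 414, 421 and 395 in treated WT (0.65, adjusted p = 0.37). Treated aly arrays of Trim26 read 115, 251 and 333, below the treated WT ones (-0.89, adjusted p = 0.2). This moved to -0.48 once treated aly replicate 1 was left out. The other probe set of Trim26 read the other way, at 1.26 (adjusted p = 0.25), and at 0.35 without that array. Trim35 stood at 4925, 2674 and 3814 in treated WT against 2238, 2056 and 2536 untreated, which do not overlap (0.70, adjusted p = 0.3). Trim13, a membrane-bound ligase of the endoplasmic reticulum, was at 33.6 to 46.9 in untreated WT and 1.7 to 21.9 in untreated aly (-1.15 ± 0.39, adjusted p = 0.26). Trim23, an ARF-domain ligase that modifies the NF-kB regulator NEMO, read 163, 114 and 199 in untreated WT and 50.1, 66.1 and 76 in untreated aly (-1.11 ± 0.37, adjusted p = 0.26). Its 2 other probe sets gave 0.19 and -0.03 there, and between treated genotypes 0.57 and 1.08 (-0.17 and 1.02 without treated aly replicate 1), against -0.95 on the one used.

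Trim8 and Trim27 read higher in treated aly than in treated WT DCs without overlap, and neither passed. Trim8, which acts on TAK1 in NF-kB signalling, read 41.6, 41.3 and 61.5 in treated WT and 108, 156 and 104 in treated aly (1.11 ± 0.43, adjusted p = 0.14). Both other probe sets of Trim8 read slightly lower in aly (-0.30 and -0.04, or -0.51 and 0.26 without treated aly replicate 1). Trim27 read 1356, 1080 and 1229 in treated WT and 4172, 1949 and 2164 in treated aly (1.09 ± 0.43, adjusted p = 0.14). Of its 5 other probe sets 2 gave -0.43 and -0.08. Without treated aly replicate 1 these gave 0.03 and -0.55, and another turned from 0.29 to -0.19. Trim2, an NHL-repeat ligase, read 14.6, 14 and 10.2 in treated WT and 41.4, 77.8 and 44 in treated aly. Its difference of 1.25 ± 0.37 was not called with all arrays (adjusted p = 0.061) and was called without treated aly replicate 1 (1.38, adjusted p = 0.034). Levels in treated WT are under the added 16, which lowers that estimate. The other probe sets of Trim2 that passed the filter gave 0.69 and 0.26 between treated genotypes. Without treated aly replicate 1 they gave 0.52 and -0.03 (adjusted p = 0.49 and 0.98), so that call rests on the probe set used.

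The chromatin members of the PHD and bromodomain class gave no call. Trim28 (KAP1), the corepressor of KRAB zinc finger proteins, read 1124, 969 and 583 in untreated WT and 1604, 1402 and 1499 in treated WT (0.79 ± 0.41, adjusted p = 0.28). The other probe set of Trim28 overlapped, with 694.3, 726.6 and 367.5 before and 624.1, 731.1 and 691.3 after (0.25, adjusted p = 0.88). Trim24 read 105, 168 and 156 in untreated WT and 198, 315 and 270 in treated WT (0.80, adjusted p = 0.23). Its 2 other probe sets, at 94.5 or less on every array, gave -0.76 and 0.13 for treatment in WT, and between treated genotypes 0.52 and -0.29 against -0.94 on the one used. Trim33 read 1429, 1518 and 1476 in untreated WT and 968, 1125 and 1158 in treated WT (-0.44, adjusted p = 0.67). In these 3 members, on the probe sets used, the WT groups did not overlap, with Trim24 and Trim28 higher and Trim33 lower after treatment. Untreated aly arrays of Trim33 read 932, 800 and 1159, all below the untreated WT ones (-0.62, adjusted p = 0.7).

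Trim37 fell in WT DCs. It encodes a MATH-domain ligase of peroxisomes and centrosomes. Untreated WT arrays read 769, 859 and 824.5 and treated WT arrays 177, 294 and 83.3. Untreated aly arrays read 656, 734 and 441 and treated aly arrays 149, 901 and 386. All treated WT arrays lay far below the untreated ones, and the aly groups overlapped. Trim37 fell by 2.20 ± 0.54 on the log2 scale in WT (4.60-fold, adjusted p = 0.016, or 0.0013 once treated aly replicate 1 was left out). The call was lost without any 1 of untreated WT replicates 1 to 3, without treated WT replicate 1 or 3, and with an offset of 1 (adjusted p up to 0.11). Its 4 other probe sets gave -1.39 to -0.89 in WT, the same direction, and none was called with all arrays. Without treated aly replicate 1 those at -1.39 and -1.29 were called (adjusted p = 0.04 and 0.012). In aly the estimate on the probe set used was -0.64 ± 0.54 (adjusted p = 0.61), and -0.01 without treated aly replicate 1. Without that array Trim37 was called higher in treated aly than in treated WT (1.74, 3.35-fold, adjusted p = 0.03, against 1.12 and 0.22 with all arrays). For that difference its 4 other probe sets gave -0.24 to 0.68 with all arrays. Without treated aly replicate 1 they gave 0.12 to 0.55 (adjusted p = 0.52 or more), so that call rests on the probe set used. The interaction of 1.56 (95% interval -0.05 to 3.17) was not called with all arrays.

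On the probe sets used, Trim59, Trim36 and Trim45 read lower in treated than in untreated WT DCs without overlap, and none was called with all arrays. Trim59, a membrane-anchored member, read 801, 831 and 830 in untreated WT and 310, 319 and 318 in untreated aly. It read 117, 493 and 348 in treated WT and 72.2, 214 and 493 in treated aly. The untreated arrays of each genotype lie close together and far from those of the other, while the treated arrays of both genotypes overlap. The untreated difference was -1.34 ± 0.56 (2.52-fold, adjusted p = 0.41 with the spread of all 12 arrays), and it was called in a fit of the untreated groups alone (adjusted p = 0.033). The other probe set of Trim59, dim on most arrays, gave -0.26 there, and 1.02 between treated genotypes against -0.42 on the one used (0.26 and 0.23 without treated aly replicate 1). For treatment in WT Trim59 was at -1.52 ± 0.56 (adjusted p = 0.099, and 0.019 without treated aly replicate 1). Trim36, a ligase that binds microtubules, was at -1.38 ± 0.50 (adjusted p = 0.1), with 178, 415 and 312 before and 115, 123 and 70.1 after treatment. The other probe set of Trim36 overlapped, with 46, 41.1 and 36.1 before and 35.3, 44.1 and 25.9 after (-0.17, adjusted p = 0.92). Trim45 was at -1.11 ± 0.44 (adjusted p = 0.14). Beside these values stands the summed level of 9 markers of CD8 alpha positive DCs. It was 13820 to 23530 in untreated WT and 4314 to 9392 in treated WT samples. In aly samples it was 21830 to 22680 untreated and 5786 to 13490 treated. Of the 9 markers 7 were called lower with treatment in WT, beside 4.75% of all genes, and 0 in aly, beside 0.0333%. Their part in the values of the TRIM genes was not tested.

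Trim43a had the largest TRIM change of treatment in WT among the 46 tested members. It belongs to a group of near-identical genes (Trim43a, Trim43b and Trim43c) best known from the early embryo and germ line, and its single probe set may read more than 1 of them. Untreated WT arrays read 25.6, 9.6 and 33, and treated WT arrays 460, 282 and 487. Untreated aly arrays read 22.8, 28.5 and 11.5, and treated aly arrays 203, 136 and 68.5. Treated arrays were above untreated ones in both genotypes, and treated aly arrays were all below treated WT arrays. Trim43a rose by 3.47 ± 0.42 in WT (11.1-fold, adjusted p = 6.5e-05), a call that held in all 24 alternative fits. With untreated levels near the added 16 the size depends on the offset, and it ranged from 2.43 to 4.23 over the alternatives. In aly the estimate was 1.96 ± 0.42 (3.90-fold, adjusted p = 0.051), and 1.65 without treated aly replicate 1 (adjusted p = 0.12). Treated aly was lower than treated WT, at -1.55 (95% interval -2.44 to -0.66, adjusted p = 0.043). That call held in 12 of 24 alternative fits. It was lost without any 1 of untreated WT replicates 1 to 3, untreated aly replicates 1 and 2, treated WT replicates 1 and 3 or treated aly replicates 2 and 3, with an offset of 1, with quantile normalization and in a fit of the treated groups alone (adjusted p up to 0.2). The interaction of -1.51 (95% interval -2.77 to -0.25) was not called.

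Trim3, an NHL-repeat ligase that has been tied to Toll-like receptor 3 sorting, read 43.8, 36.1 and 52.7 in untreated WT and 154, 87.5 and 209 in treated WT. It was at 1.40 ± 0.44 (2.64-fold, adjusted p = 0.055, and 0.024 without treated aly replicate 1). Untreated aly arrays read 93.1, 142 and 30.9 and treated ones 110, 124 and 152, which overlap (0.63, adjusted p = 0.54).

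**Figure D5:**
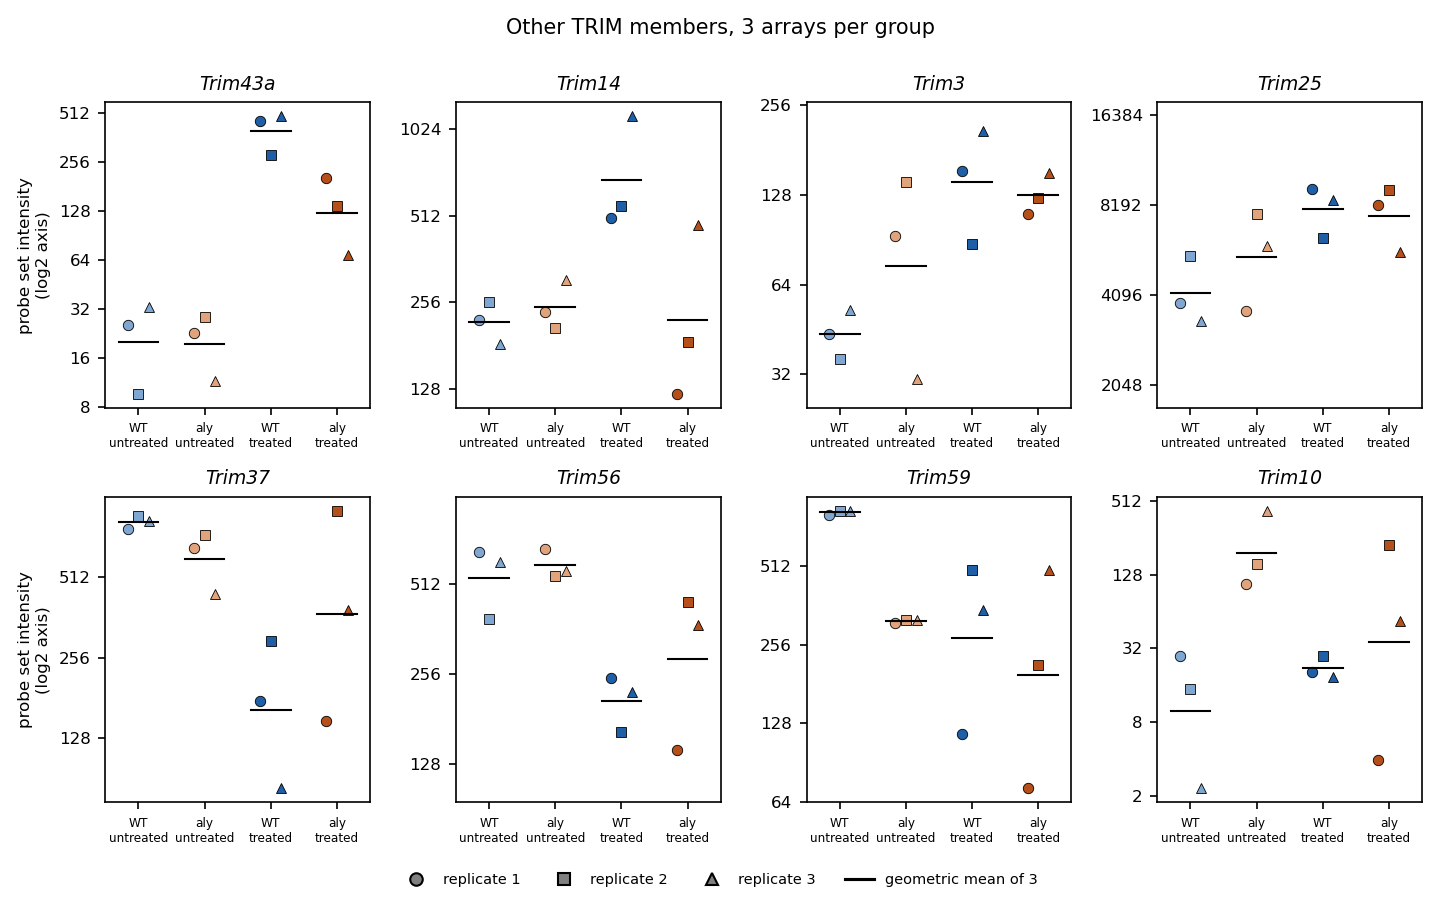
Probe set intensity on each of the 12 arrays for 8 TRIM members outside the chromosome 7 cluster, on log2 axes; symbols give the replicate, lines the geometric mean of the 3 arrays. Treated WT arrays of Trim43a and Trim14 lie above all other groups, Trim37 falls in WT, and the 3 untreated aly arrays of Trim10 lie above all WT arrays.

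Trim10, a gene of late red cell development, read higher in untreated aly than in untreated WT samples without overlap. Untreated WT arrays read 27.8, 15 and 2.3, and untreated aly arrays 108, 157 and 425. Treated WT arrays read 20.7, 27.6 and 18.8 and treated aly arrays 3.9, 226 and 53.1. All untreated aly arrays were above all WT arrays, and the treated aly arrays lay on both sides of the treated WT ones. The untreated difference was 2.86 ± 0.69 (7.24-fold, adjusted p = 0.083), and it was called without treated aly replicate 1 (adjusted p = 0.0072), without treated aly replicate 2 and in replicates 2 and 3 alone (3.54, adjusted p = 0.0038). Of 19 erythroid markers 14 were on the array, and their summed level was 418 to 610 in untreated WT, 1613 to 4812 in untreated aly, 789.9 to 991.1 in treated WT and 1816 to 5014 in treated aly samples. Among 13 tested, 2 were called higher in untreated aly and 4 in treated aly, beside 0.499% and 2.74% of all genes. Without treated aly replicate 1 these were 8 and 3, beside 1.92% and 4.13% of all genes. The erythrocyte gene Slc4a1 read 2.6 to 59.6 in untreated WT and 445 to 1210 in untreated aly, whereas the globin gene Hba-a1 stayed at 1.2 to 36 on all arrays. Their part in the Trim10 value was not tested. Trim47 was also above all untreated WT arrays (26, 3.3 and 5.2) in untreated aly (57.9, 32.2 and 83.4), at 1.45 ± 0.49 (adjusted p = 0.26).

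Over all genes 4.95% were called higher and 4.75% lower with treatment in WT. Between treated genotypes 2.64% of all genes were called lower in aly. By subfamily, the 28 members of the PRY-SPRY class had 24 tested, of which 2 rose in WT (Trim43a and Trim30d) and 3 were lower in treated aly (Trim21, Trim30a and Trim43a). The class had a median response of 0.29 in WT and -0.22 in aly, and a median genotype difference of -0.77 after treatment. Without treated aly replicate 1 the aly median was 0.11 and the treated genotype median -0.21. The 5 members with a MATH, ARF, filamin or transmembrane domain had a median of -1.11 in WT, with Trim37 called lower, and in aly of -0.61, or -0.01 without that array. The 4 members without a RING finger were all tested, with Trim14 called higher in WT and a median of -0.12. The 3 tested PHD and bromodomain members, the 4 NHL-repeat members and the 3 tested members of the Trim9 class (with Trim36 and Trim46) had no call in any comparison with all arrays. Trim8 and Trim56 were the tested members with no further C-terminal domain, again without a call.

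The 12 members that did not pass the filter were Trim15, Trim31, Trim40, Trim42, Trim54, Trim61, Trim63, Trim66, Trim67, Trim69, Trim72 and Trim75. Their medians over the 12 arrays were 1.35 to 9.1, and each was above the 40th percentile of the array on at most 2 arrays. The highest single values were 62.9 for Trim54 and 40 for Trim63, a muscle ligase, both on treated aly replicate 1. Of the tested members without a result above, Trim44 had the largest genotype difference in treated DCs, with 500, 686 and 547 in WT and 52.6, 195 and 533 in aly (-1.56, adjusted p = 0.11, and -0.79 without treated aly replicate 1). Its 2 other probe sets gave -0.25 and 0.46, and it was named after its values were seen. The other 16 tested members, Trim7, Trim9, Trim11, Trim16, Trim17, Trim29, Trim32, Trim39, Trim41, Trim46, Trim60, Trim62, Trim65, Trim68, Trim71 and Trim80, lay between -0.96 and 0.89 in the 4 simple comparisons, and none was called (-0.92 to 1.01 without treated aly replicate 1, again with no call).

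Probe sets with several symbols are no members but bear on the paralogues. The probe set of Trim30d and Trim30a read 213, 206.5 and 498.9 in untreated WT, 997, 1042 and 1436 in treated WT, 96.6, 92.2 and 273.6 in untreated aly and 11.3, 96.8 and 342.6 in treated aly. The treated genotypes differed by -3.49 on the log2 scale, lower in aly (adjusted p = 0.011 over 34205 probe sets, and -2.53 with adjusted p = 0.0089 without treated aly replicate 1), and its WT treatment estimate of 1.96 was not called with all arrays (adjusted p = 0.099, and 0.0075 without that array). One of the 2 probe sets of Trim34b and Trim34a was also lower in treated aly (-2.08, adjusted p = 0.041), where treated aly replicate 1 read 10 against 100 and 94.6 on the other two. Without it the difference was -1.37 and no longer called (adjusted p = 0.083). The second of these probe sets gave -1.17 (adjusted p = 0.12).

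Genes that work with TRIM proteins were counted in the same fit, beside 4.95% of all genes called higher with treatment in WT, 0.453% higher in aly and 2.64% lower in treated aly than in treated WT. Among 15 tested E1 and E2 enzymes and modifiers 3 were called higher in WT with treatment and 0 in aly, and 2 were lower in treated aly than in treated WT. They were led by Ube2l6, the E2 for ISG15 (4.23 ± 0.37, 18.7-fold), and Uba7, its E1 (2.48 ± 0.38, 5.56-fold). Among 18 genes of RNA sensing and ISG15 conjugation around Trim25, 8 rose in WT and 2 in aly, and 6 were lower in treated aly (8, 1 and 6 without treated aly replicate 1). Of 10 interferon receptor and signalling genes 4 rose in WT and 0 in aly, and 4 were lower in treated aly. Of 12 chromatin partners of Trim28, 3 rose in WT, among them Daxx (7.03-fold), and 0 differed between treated genotypes (Daxx alone was lower in treated aly without treated aly replicate 1, at -2.22, adjusted p = 0.0027). The counts of the enzyme and the interferon lists named here did not change without that array, beside 7.8%, 0.366% and 2.98% of all genes in the same 3 comparisons. Pml, a tripartite motif protein of nuclear bodies outside the Trim naming scheme, rose in WT by 3.09 ± 0.43 (8.52-fold, adjusted p = 0.00023) and was at -0.23 ± 0.43 in aly (adjusted p = 0.84). Its interaction was called (-3.32 ± 0.61, adjusted p = 0.046), the only call for the interaction in these 5 lists and the 46 members with all arrays. Without treated aly replicate 1 it was -3.06 (adjusted p = 0.022), and Ube2l6 (-2.67, adjusted p = 0.024) and Daxx (-2.29, adjusted p = 0.038) were called too. These lists share the 12 arrays with the members, so their values are not independent of the results above.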

How the data were processed

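RNA of sorted splenic DCs was extracted with Qiagen RNeasy, labelled after a second round of amplification and hybridised to 1-colour Affymetrix arrays, per the labels' protocols. The deposited values are probe set intensities on a linear scale, which the authors scaled so that the mean of each array after trimming 2% at both ends is the same. Which software and background correction were used is not stated in the labels. Of 45101 probe sets, 34958 carried 1 gene symbol, 932 several and 9211 none in the platform annotation, which can be old; all 58 members were matched to RefSeq by gene ID.

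Values were taken as log2(value + 16). Probe sets above the 40th percentile of an array on at least 3 arrays were kept, 1 per gene, and limma 3.58.1 in R 4.3.3 was fitted to 4 group means over all 12 arrays. The comparisons were treatment in WT and in aly, genotype (aly minus WT) untreated and treated, and their interaction, with Benjamini-Hochberg adjustment over 15019 genes. Other probe sets were adjusted over the 34205 that passed the filter. The fit was tested on simulated data.

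Members and gene lists were chosen with earlier results of these data known. Named members were all those called in any comparison, a fixed list of members with known immune or chromatin roles, and those with a log2 difference of at least 1 and no overlap between groups. Up to 2 genes of each other list, those with the smallest p for treatment in WT, were named. Replicate numbers were not taken as pairs in the main fit. Correlations of deviations between same-numbered arrays were 0 to 0.28, -0.03 to 0.3 and -0.03 to 0.18. The 4 replicate 1 arrays shared low poly-A spikes, and the labels name no batch. No depth applies to arrays, and 3 arrays per group limit the precision.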

Additional observations from a re-analysis of the deposited data

How the results depend on the processing

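Members called were recounted under each alternative, against 4 for treatment in WT, 0 in aly, 0 for genotype untreated, 3 for genotype treated and 0 for the interaction; percentages are the share of all genes called in the same fit. An offset of 1 in place of 16 gave 2 in WT (5.98%) and 0 for genotype treated (1.54%). An offset of 64 gave 5 in WT (11.8%) and 6 for genotype treated (6.95%). Median centring gave 5 in WT (9.04%), 1 in aly (0.566%) and 4 for genotype treated (6.1%). Array weights gave 13 in WT (22.4%), 2 in aly (1.09%), 3 and 17 for genotype untreated and treated (4.11% and 19.2%), and 1 for the interaction (2.4%). A fit of only the groups compared gave 10 in WT (19.3%) and 3 and 0 for genotype untreated and treated (2.62% and 0.18%). With replicate 1 against 2 and 3 as a batch block, 5 were called in WT (11.7%) and 1 in aly (0.799%). The same block gave 1 and 6 for genotype untreated and treated (1.17% and 7.88%). In replicates 2 and 3 alone 1 was called for genotype untreated (1.54%) and 2 for genotype treated (4.97%). Leaving out 1 array at a time gave 2 to 8 in WT (3.91% to 18.9%), 0 to 1 in aly (0.0866% to 0.679%), 0 to 2 for genotype untreated (0% to 2.64%), 0 to 8 for genotype treated (0.539% to 10.3%) and 0 for the interaction. Leaving out treated aly replicate 1 together with the batch block, an alternative chosen after seeing the data, gave 10 in WT (19.5%) and 3 and 6 for genotype untreated and treated (3.46% and 7.82%). The replicate block, although the labels name no pairing, gave 5 in WT (11.1%), 0 in aly, 0 untreated, 4 treated (7.38%) and 0 for the interaction. The cause of these moves was not tested. Of 43 other probe sets of 27 tested members, 11 had the other sign for treatment in WT, 23 in aly, 13 and 20 for genotype untreated and treated and 10 for the interaction, and none of these was called. Among named members at a difference of 1 or more, the sign turned for Trim27 (genotype treated -0.08 and -0.43, interaction -0.16 and -0.54), Trim12a (genotype treated 0.25), Trim26 (interaction 0.20), Trim34a (genotype untreated 0.56, treated 0.43), Trim23 (genotype untreated 0.19), Trim37 (genotype treated -0.24) and Trim8 (genotype treated -0.30 and -0.04). These are values with all arrays. Without treated aly replicate 1, Trim12a (-0.23), Trim34a (-0.06) and Trim37 (0.12) had the sign of the probe set used for genotype treated. Trim27 then gave -0.55 and 0.03 and Trim8 -0.51 and 0.26 for genotype treated. The interaction was then -0.71 for Trim26, the sign of the probe set used, and -0.63 and -0.08 for Trim27, still the other sign. Probe sets with low signal limit these comparisons.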
